A study of Homo sapiens with 4 samples.

Results

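The polyamine gene set holds 10 genes: SAT1, SAT2, SMOX and PAOX of polyamine breakdown, ODC1, AMD1, SRM and SMS of synthesis, and OAZ1 and AZIN1 of antizyme control. They were picked by symbol from a table of 39519 genes, and all 10 are listed in it above 0 in every library. The set was built around SAT1 because SAT1 was lower after PURB knockdown in these same libraries. The SAT1 values are therefore a description and carry no test. The other 9 genes were picked for their role in the pathway, with earlier results of these data known. RNA was sequenced, after removal of ribosomal RNA, from U2OS, an established human osteosarcoma line labelled as bone cancer cells. PURB encodes a PUR family protein that binds purine-rich single-stranded DNA and RNA. Cells with an inducible short hairpin against PURB (sh-PURB, 2 libraries) received doxycycline at 5 µg/ml for 72 h, and cells with a control hairpin (sh-NC, 2 libraries) received DMSO. All were grown in DMEM with fetal bovine serum. Doxycycline was given to every sh-PURB library and to no sh-NC library, so agent and knockdown cannot be told apart, and neither can fewer cells expressing a gene and less of its RNA per cell. The labels do not say whether the libraries came from separate cultures, or whether the cells were a clone or carried the same hairpin, so p-values cover the spread among these libraries alone, and that may be technical.

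Polyamines (putrescine, spermidine and spermine) are small positively charged molecules that bind nucleic acids and are needed for translation and cell growth. Ornithine decarboxylase, encoded by ODC1, makes putrescine, and aminopropyl groups from decarboxylated S-adenosylmethionine then extend it to spermidine and spermine. Breakdown runs backwards: SAT1 acetylates spermidine and spermine, and the acetylated forms are oxidised by PAOX or exported. Antizyme (OAZ1) binds ornithine decarboxylase and sends it to the proteasome, and the antizyme inhibitor AZIN1 sequesters antizyme. SAT1 is a described p53 target and is induced by polyamine excess.

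The values were TPM, a share of transcripts scaled by length, so levels of different genes can be compared, but the read depth behind them is unknown. PURB itself stood at 5.29 and 6.55 TPM in the controls, against 2.46 and 2.69 TPM with sh-PURB, 43.5% of the control mean, with a limma adjusted p of 0.102. An exact two-sided permutation test of PURB gave p = 0.333, which is as small as 2 against 2 libraries can give. Between 13298 and 14207 genes reached 1 TPM in a library. Abundant structured RNAs (RPPH1, RMRP, RN7SK, RN7SL1 and RN7SL2) took 62.2% and 59.4% of the total in sh-NC and 65.2% and 63.2% in sh-PURB, so the share left to other genes was smaller in sh-PURB. Of 8 osteoblast lineage markers 4 were tested, with SPARC between 220 and 262 TPM, while SP7, BGLAP, ALPL and COL1A2 stayed under 1 TPM in every library. The mesenchymal marker VIM was between 298 and 342 TPM, and fibronectin (FN1), also in that list, was at 50.7 and 79.7 TPM in the controls, against 9.47 and 12.8 TPM with sh-PURB. The summed level of 8 markers of other cell types (epithelial, immune, endothelial, hepatocyte and neuronal) was 4.35 and 4.48 TPM in the controls, against 5.35 and 5.01 TPM with sh-PURB, and its part in the results was not tested. In these markers EPCAM contributed 1.79 to 2.44 TPM, and ALB was listed at 0 in 3 of the 4 libraries. The neuronal marker RBFOX3 was at 0.515 and 0.220 TPM in the controls, against 1.60 and 0.866 TPM with sh-PURB, while the endothelial marker CDH5 was at 0.0880 and 0.114 against 0.0345 and 0.0285 TPM.

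SAT1, the gene of spermidine/spermine acetyltransferase, stood at 17.4 and 20.6 TPM under sh-NC, against 4.64 and 5.46 TPM under sh-PURB. Both sh-PURB libraries lay far below both controls, and the libraries of each group lay close to one another. The means were 19.0 ± 2.28 and 5.05 ± 0.579 TPM (SD, n = 2 each), so the sh-PURB level was 26.5% of control, or 3.77-fold lower. The difference was -1.73 with a standard error of 0.16 on the log2(TPM + 1) scale, the base-2 logarithm after adding a pseudocount of 1. Among 11927 tested protein-coding genes, 45 had a more negative difference than SAT1. With TPM recomputed without mitochondrial genes and the 5 genes above 1% of any library, the difference was -1.70. In that scale SAT1 was at 48.9 and 54.4 against 14.3 and 16.2.

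SAT1 lies on chromosome X at 23783173 to 23786226, plus strand (GRCh38, GENCODE v29), where 9 transcripts are annotated, 4 of them protein coding. A known SAT1 splice form carries an extra exon and is degraded. The gene-level TPM does not separate such forms, so only their sum can be described. The SAT1 sequence directly upstream of its start is shown because SAT1 is the gene the set was built around, and that of SRM because SRM had the highest ratio to control in the set. Both are 250 bases from RefSeq on GRCh38.p14, at chrX:23782923-23783172 on the plus strand for SAT1 and chr1:11060019-11060268 on the minus strand for SRM. In the SAT1 window up to 34 bases belong to an exon of the antisense RNA AC131011.1, and the last 6 bases of the SRM window lie in an annotated SRM exon. Capitals mark matches to CACGTG, the E-box bound by MYC and MAX, or to the purine-rich repeat GGNGGNGGN, searched on both strands.
SAT1: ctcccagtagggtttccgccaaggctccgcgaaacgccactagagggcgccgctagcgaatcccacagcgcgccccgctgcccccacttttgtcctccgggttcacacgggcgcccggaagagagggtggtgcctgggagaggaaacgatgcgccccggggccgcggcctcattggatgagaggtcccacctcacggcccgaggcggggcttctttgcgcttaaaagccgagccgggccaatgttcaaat
SRM: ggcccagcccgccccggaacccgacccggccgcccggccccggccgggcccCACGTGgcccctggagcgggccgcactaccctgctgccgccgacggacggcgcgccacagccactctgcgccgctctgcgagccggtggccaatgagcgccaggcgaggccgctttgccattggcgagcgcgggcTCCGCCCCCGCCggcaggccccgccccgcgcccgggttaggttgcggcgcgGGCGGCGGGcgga

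The SAT1 window held neither motif and no match to the p53 half-site. The SRM window held 1 match to CACGTG and 3 to GGNGGNGGN. Of 35116 RefSeq windows of the same length, 6.35% held CACGTG, 49.0% held GGNGGNGGN and 5.57% held a p53 half-site. Windows were found for 7 of the 10 genes (SAT1, SAT2, ODC1, AMD1, SRM, SMS and OAZ1). Among these 7, 2 genes held CACGTG (SRM and ODC1), 6 held GGNGGNGGN and 0 held a p53 half-site. A gene was counted if any of its 1 to 3 windows held a match. The shares of RefSeq windows are per single window, so the gene counts cannot be compared with them directly. In ODC1 the CACGTG match was in the window of its more downstream start, where up to 142 bases belong to an annotated ODC1 exon. Other windows also met annotated exons, with up to 158 bases for SAT2 (SHBG), 136 for SMS (its own) and 152 for OAZ1 (JSRP1). Motif matches describe the letters in these windows only.

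**Figure D1:**
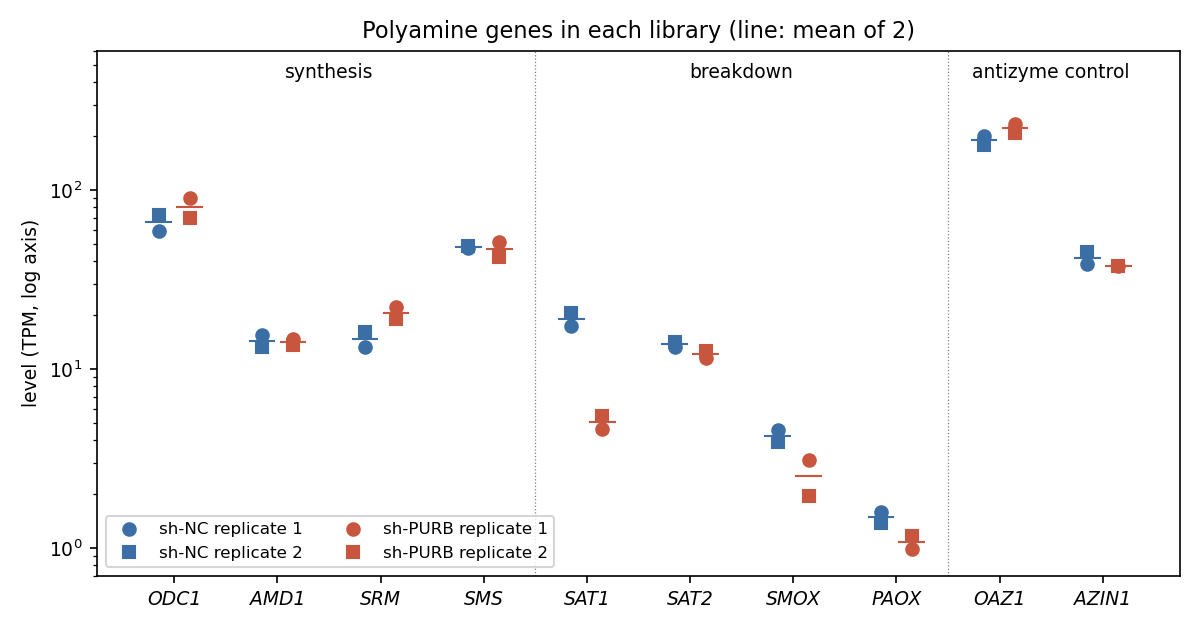
Level of each polyamine gene in each library (vertical log axis, TPM), grouped by role, with sh-NC in blue and sh-PURB in red, a circle for replicate 1, a square for replicate 2 and a line at the mean of 2. SAT1 shows the widest gap, from 17.4 and 20.6 to 4.64 and 5.46 TPM, while its paralog SAT2 stays between 11.6 and 14.2 TPM.

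In the limma fit over 14269 tested genes, 41 passed an adjusted p of 0.05, a share of 0.287% (0.0841% higher and 0.203% lower). All 10 polyamine genes passed the filter on low values, 1 TPM or more in 2 or more libraries. SAT1 was the single member past the threshold, and nothing is read from that, because its fall chose the set. Without either sh-PURB library it did not pass, and the count over all genes was 0, while it was 131 without sh-NC replicate 1 and 155 without sh-NC replicate 2. Of the other 9 genes 0 passed by limma, and 2 of them (SMOX and SRM) had an unadjusted limma p under 0.05, where 15.3% of all tested genes did. The median difference of these 9 genes was -0.06, beside -0.06 for all tested genes. Both sh-PURB libraries lay above both controls for 2 of the 9 (SRM and OAZ1) and below them for 4 (SAT2, SMOX, PAOX and AZIN1). Over all genes the groups did not overlap for 47.9%, with sh-PURB above for 18.6% and below for 29.3%. These placements are of TPM as deposited and depend on the scaling. With recomputed TPM the groups of SAT2 and of AZIN1 overlapped, and both sh-PURB libraries lay above both controls for ODC1. The share of all genes without overlap in that scale is not given here.

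The other breakdown genes were each below control, at much smaller distance than SAT1. SAT2 encodes the paralog of SAT1, an acetyltransferase with little activity on polyamines. SAT2 was at 13.3 and 14.2 TPM in the controls, against 11.6 and 12.6 TPM with sh-PURB. Its groups did not overlap, but the gap between them was smaller than the spread within either. The SAT2 difference was -0.17 with a 95% interval of -0.49 to 0.15 (limma adjusted p = 0.586). With recomputed TPM it was -0.03, and the groups overlapped.

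SMOX, spermine oxidase, converts spermine directly to spermidine and releases hydrogen peroxide. It was at 4.55 and 3.93 TPM in the controls, against 3.09 and 1.96 TPM with sh-PURB, 59.5% of the control mean. Both sh-PURB libraries were below both controls, and they differed from one another more than the controls did. The SMOX difference was -0.59 with a 95% interval of -1.16 to -0.01 and did not pass (limma adjusted p = 0.318). Without sh-PURB replicate 2 it was -0.36, and without sh-PURB replicate 1 it was -0.82.

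PAOX, the peroxisomal oxidase of acetylated polyamines, had the lowest level in the set, at 1.60 and 1.38 TPM in the controls, against 0.984 and 1.16 TPM with sh-PURB. The groups did not overlap, and at so low a level the pseudocount shrinks the difference, which was -0.26 with a 95% interval of -0.79 to 0.27 (limma adjusted p = 0.616).

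Summed over the 4 breakdown genes, the level was 36.9 and 40.1 TPM in the controls, against 20.3 and 21.2 TPM with sh-PURB. SAT1 made up 47.3% and 51.4% of this sum in sh-NC and 22.9% and 25.8% in sh-PURB. Without SAT1 the sum of SAT2, SMOX and PAOX was 19.4 and 19.5 TPM in sh-NC and 15.7 in both sh-PURB libraries. SAT2 was the largest part of this sum. With recomputed TPM SAT2 was at 37.3 and 37.4 in sh-NC and 35.7 and 37.5 in sh-PURB, so the gap in the sum depends on the scaling. The ratio of SAT1 to SAT2, a comparison within each library that no scaling between libraries touches, was 1.31 and 1.46 in sh-NC and 0.400 and 0.433 in sh-PURB. SAT1 mRNA thus exceeded SAT2 mRNA in both control libraries and was below it in both knockdown libraries. These sums and ratios were formed after the values were seen and contain the chosen gene, so they are given as descriptions.

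**Figure D2:**
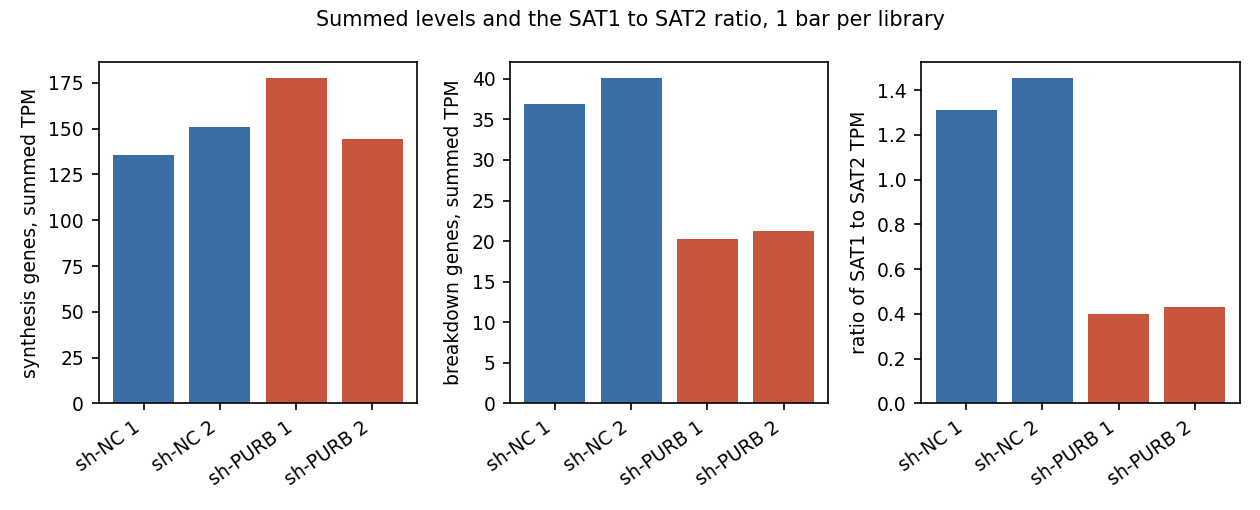
Left and middle, TPM summed over the 4 synthesis genes and over the 4 breakdown genes, and right, the ratio of SAT1 to SAT2 TPM, with 1 bar per library (sh-NC blue, sh-PURB red, axes from 0). The breakdown sum is 36.9 and 40.1 TPM in the controls, against 20.3 and 21.2 TPM with sh-PURB. The synthesis sums of the groups overlap in TPM as deposited. With recomputed TPM the groups of ODC1, the largest part of the synthesis sum, do not overlap.

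None of the 4 synthesis genes passed the test in limma. SRM, spermidine synthase, which joins an aminopropyl group to putrescine, was at 13.2 and 16.0 TPM in the controls, against 22.2 and 19.0 TPM with sh-PURB, 1.41 times control. Both sh-PURB libraries lay above both controls. The SRM difference was 0.47 with a 95% interval of 0.07 to 0.87 (limma adjusted p = 0.265). In the control libraries SRM was below SAT1 (0.759 and 0.777 of its TPM), and in the knockdown libraries it was 4.79 and 3.48 times as high. This comparison contains SAT1, whose fall chose the set, so it is a description.

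ODC1, the first enzyme of the pathway, was at 59.3 and 72.8 TPM in the controls, against 89.9 and 69.9 TPM with sh-PURB. The groups overlapped, since sh-PURB replicate 2 lay between the controls. Its difference was 0.27 with a 95% interval of -0.18 to 0.71 (limma adjusted p = 0.530). With recomputed TPM it was 0.42, and the groups did not overlap (167 and 192 in the controls, against 277 and 208 with sh-PURB). The ODC1 difference was 0.088 without sh-PURB replicate 1, 0.45 without sh-PURB replicate 2, 0.12 without sh-NC replicate 1 and 0.41 without sh-NC replicate 2.

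AMD1 encodes S-adenosylmethionine decarboxylase, the source of the aminopropyl groups. It was at 15.5 and 13.3 TPM in the controls, against 14.7 and 13.7 TPM with sh-PURB, with both knockdown values between the control values. SMS, spermine synthase, was at 47.7 and 48.7 TPM in the controls, against 51.0 and 42.1 TPM with sh-PURB, on either side of the controls. The differences were -0.02 for AMD1 (95% interval -0.37 to 0.33) and -0.06 for SMS (95% interval -0.39 to 0.27), with limma adjusted p-values of 0.968 and 0.876. Their signs turned under other scalings, to 0.13 for AMD1 and 0.09 for SMS with recomputed TPM. The ratio of SRM to SMS, the enzymes that make spermidine and spermine, was 0.277 and 0.329 in sh-NC and 0.436 and 0.451 in sh-PURB. Summed over the 4 synthesis genes the level was 136 and 151 TPM in the controls, against 178 and 145 TPM with sh-PURB. These groups overlapped in TPM as deposited, and the overlap depends on the scaling. With recomputed TPM the groups of ODC1, the largest part of this sum, did not overlap.

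OAZ1, antizyme, had the highest level of the set. Its protein is made only when ribosomes shift frame, which polyamines promote, so its mRNA level does not give the amount of antizyme. OAZ1 was at 199 and 179 TPM in the controls, against 233 and 209 TPM with sh-PURB, 1.17 times control, with no overlap. The OAZ1 difference was 0.22 with a 95% interval of -0.05 to 0.50 (limma adjusted p = 0.403). It was 0.15 without sh-NC replicate 2 or sh-PURB replicate 1 and 0.38 with recomputed TPM.

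AZIN1, which resembles ornithine decarboxylase without its activity and binds antizyme more tightly, was at 38.7 and 44.9 TPM in sh-NC. In sh-PURB it was at 37.6 and 37.5 TPM, just below the lower control. The AZIN1 difference was -0.15 with a 95% interval of -0.45 to 0.15 (limma adjusted p = 0.616), and it was 0.0024 with recomputed TPM, -0.044 without sh-NC replicate 2 and -0.25 without sh-NC replicate 1. The ratio of OAZ1 to AZIN1 was 5.15 and 3.99 in sh-NC and 6.18 and 5.59 in sh-PURB. The ratio of ODC1 to OAZ1 was 0.297 and 0.406 against 0.386 and 0.334, with overlapping groups.

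**Figure D3:**
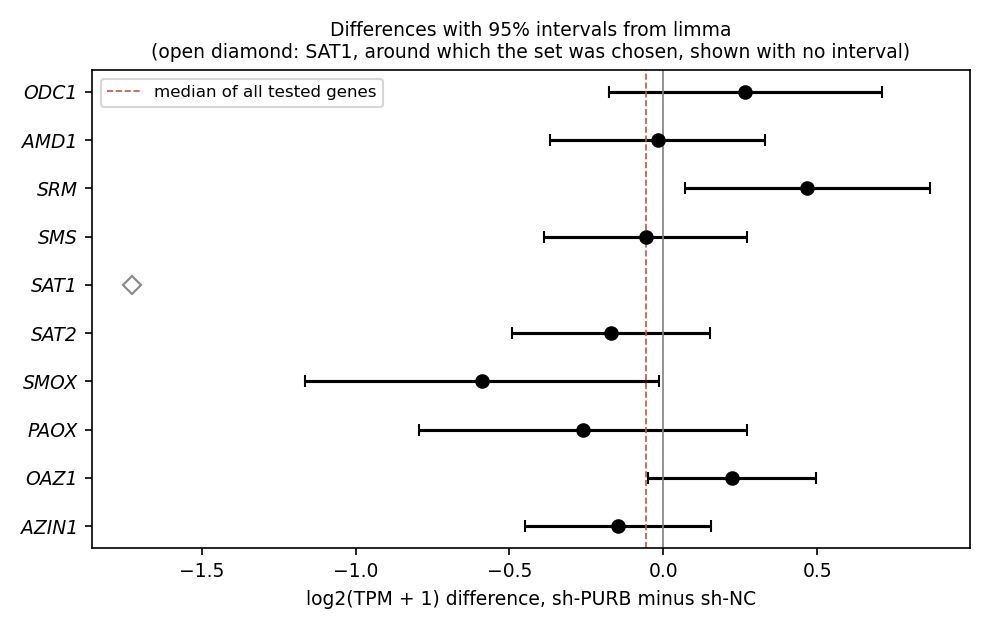
Difference between sh-PURB and sh-NC on the log2(TPM + 1) scale for each polyamine gene, with 95% intervals from limma, a grey line at 0 and a dashed line at the median of all tested genes (-0.06). SAT1 (open diamond, no interval) lies at -1.73, and of the other 9 genes SRM and SMOX have intervals that do not include 0.

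By mean TPM in sh-NC the order was OAZ1, ODC1, SMS, AZIN1, SAT1, SRM, AMD1, SAT2, SMOX and PAOX. Neighbours in this order did not overlap between libraries, except SRM with AMD1 and AMD1 with SAT2. In sh-PURB the order was the same but for SAT1, which moved from rank 5 to rank 8, below SRM, AMD1 and SAT2, and no neighbours overlapped. The move of SAT1 restates the fall that chose the set and is a description. Both extremes of the set, OAZ1 and PAOX, kept their places.

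Among the protein-coding genes whose profile over the 4 libraries lay nearest to that of SAT1 were PCDH7, LYPD6B, NRP1 and ITGB3. Nearness was the Euclidean distance between log2(TPM + 1) values centred on each gene's mean, and with 4 libraries many genes can lie close. PCDH7, a protocadherin, was nearest at 0.120, with 8.49 and 10.2 TPM in the controls, against 2.16 and 2.63 TPM with sh-PURB. The distances of LYPD6B, the semaphorin and VEGF receptor NRP1 and the integrin subunit ITGB3 were 0.199, 0.203 and 0.209. A pseudocount of 1 brings low genes nearer than their ratios are. LYPD6B was at 1.91 and 2.97 TPM in the controls, against 0.0649 and 0.104 TPM with sh-PURB, 28.8-fold lower by mean TPM, and ITGB3 was at 4.85 and 4.84 against 0.499 and 0.917 TPM, 6.84-fold lower. Both passed the filter through the controls alone. NRP1 was 3.51-fold lower (39.3 and 52.7 against 11.1 and 15.1 TPM). None of these 4 lies on chromosome X with SAT1.

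Around the core pathway, 40 genes in 6 lists, chosen with earlier results of these data known, were examined, and 30 of them passed the filter. None passed the threshold over all genes in limma, 8 had an unadjusted limma p under 0.05 (15.3% of all tested genes did), and 21 lay above 0 and 9 below, where 41.6% of all tested genes lay above. The median difference over the 30 genes was 0.18, beside -0.06 for all tested genes. The shares of 15.3% and 41.6% also stand beside the counts of each list below.

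None of the genes that supply ornithine and arginine, the precursors of putrescine, passed the test. All 8 tested members of 10 had a positive difference (median 0.33, or 0.17 and 6 of 8 without sh-NC replicate 2), and both sh-PURB libraries exceeded both controls in 5 of them, where 18.6% of all tested genes did. In limma 0 of 8 passed, with 2 at an unadjusted p under 0.05, where 15.3% of all tested genes were. ARG2, OAT and ASL overlapped between the groups. SLC7A2, a cationic amino acid transporter, was at 5.67 and 5.51 TPM in the controls, against 11.1 and 7.80 TPM with sh-PURB (limma adjusted p = 0.235). Its relative SLC7A1 was at 3.28 and 4.49 TPM against 7.05 and 5.92 TPM (limma adjusted p = 0.246). ASS1, argininosuccinate synthetase, was at 70.9 and 57.5 TPM against 73.9 and 103 TPM (limma adjusted p = 0.379). Of the members below the filter, ARG1, an arginase of liver, was listed at 0 in every library, and AGMAT was at 0.112 and 0.115 TPM in the controls, against 0.0922 and 0.0502 TPM with sh-PURB.

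Genes of S-adenosylmethionine supply and of methylthioadenosine salvage went both ways. Methylthioadenosine is the by-product of spermidine and spermine synthesis, and MTAP is the enzyme that cleaves it to return methionine and adenine. MTAP was at 38.1 and 32.3 TPM in the controls, against 18.1 and 15.5 TPM with sh-PURB, 47.8% of control, and the groups were well separated. Its difference was -1.02 with a standard error of 0.14 (limma adjusted p = 0.0728). It passed in a fit of rescaled protein-coding genes alone (limma adjusted p = 0.0190), where 2.93% of genes passed. With a filter at 5 TPM it also passed (limma adjusted p = 0.0477), where 121 of 8597 genes did. Over the alternatives that kept all 4 libraries its limma adjusted p ran from 0.0190 to 0.196. ADI1, a later enzyme of the same salvage route, was at 5.57 and 4.79 TPM against 8.04 and 8.52 TPM (limma adjusted p = 0.174), and APIP, which acts between them, at 11.4 and 13.3 against 9.79 and 8.90 TPM (limma adjusted p = 0.329). Of the 7 tested members 4 lay above 0 and 3 below, and 0 passed the test in limma. An unadjusted limma p under 0.05 was found for 2 of them, where 15.3% of all tested genes had one.

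Of the genes for hypusine, the spermidine-derived residue on the translation factor eIF5A, all 4 were tested, 3 lay above 0 and 0 passed in limma, with 1 at an unadjusted p under 0.05. EIF5A was at 71.2 and 62.0 TPM in the controls, against 98.2 and 78.1 TPM with sh-PURB, with no overlap (limma adjusted p = 0.321). DHPS, which starts the modification, was at 24.2 and 26.8 against 21.5 and 23.1 TPM, and DOHH, which completes it, at 1.77 and 1.51 against 2.57 and 1.73 TPM. Their limma adjusted p-values were 0.531 and 0.672.

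Among transport genes 5 of 10 were tested, 3 lay above 0 and 0 passed in limma, with 1 at an unadjusted p under 0.05. SLC3A2, the heavy chain of amino acid transporters that has also been linked to polyamine export, was at 27.7 and 33.4 TPM in the controls, against 45.2 and 39.8 TPM with sh-PURB (limma adjusted p = 0.234). SLC12A8 was at 1.86 and 1.91 against 2.47 and 3.47 TPM, and the lysosomal and endosomal transporter ATP13A3 at 41.6 and 40.6 against 53.6 and 45.2 TPM. For all 3 the sh-PURB libraries lay above the controls, as for 18.6% of all tested genes, without passing the test. These 3 had the smallest unadjusted limma p of the list. In the same list ATP13A2 lay below both controls (5.95 and 6.90 TPM, against 5.27 and 5.69 TPM with sh-PURB), and SLC18B1 overlapped.

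Antizyme and antizyme inhibitor have further copies, of which OAZ2 and AZIN2 were tested and 0 passed in limma, with 1 at an unadjusted p under 0.05. OAZ2 was at 15.7 and 17.6 TPM in the controls, against 12.8 and 13.3 TPM with sh-PURB, the opposite side of control from OAZ1 (limma adjusted p = 0.317). AZIN2 was at 1.84 and 1.86 against 2.31 and 2.51 TPM, also opposite to AZIN1 in TPM as deposited (limma adjusted p = 0.560). With recomputed TPM the AZIN1 difference was 0.0024 and its groups overlapped, so that contrast depends on the scaling. The difference between these copies was not tested.

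Of 4 genes known to regulate members, 0 passed in limma and 1, MYC, had an unadjusted p under 0.05. MYC, a transcription factor for which ODC1 and SRM are textbook targets, was at 8.35 and 8.30 TPM in the controls, against 17.7 and 15.6 TPM with sh-PURB, 2.00 times control. Its difference was 0.92 with a standard error of 0.13 (limma adjusted p = 0.0743). It passed among protein-coding genes alone (limma adjusted p = 0.0168), where 2.93% of genes passed. With the filter at 5 TPM it also passed (limma adjusted p = 0.0472), where 121 of 8597 genes did. Over the alternatives that kept all 4 libraries its limma adjusted p ran from 0.0168 to 0.185. PMF1 and NFE2L2, which act together on the SAT1 gene, were at 11.2 and 9.20 against 13.6 and 11.9 TPM and at 14.4 and 17.5 against 14.3 and 14.7 TPM. Neither passed (limma adjusted p = 0.436 and 0.733).

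**Figure D4:**
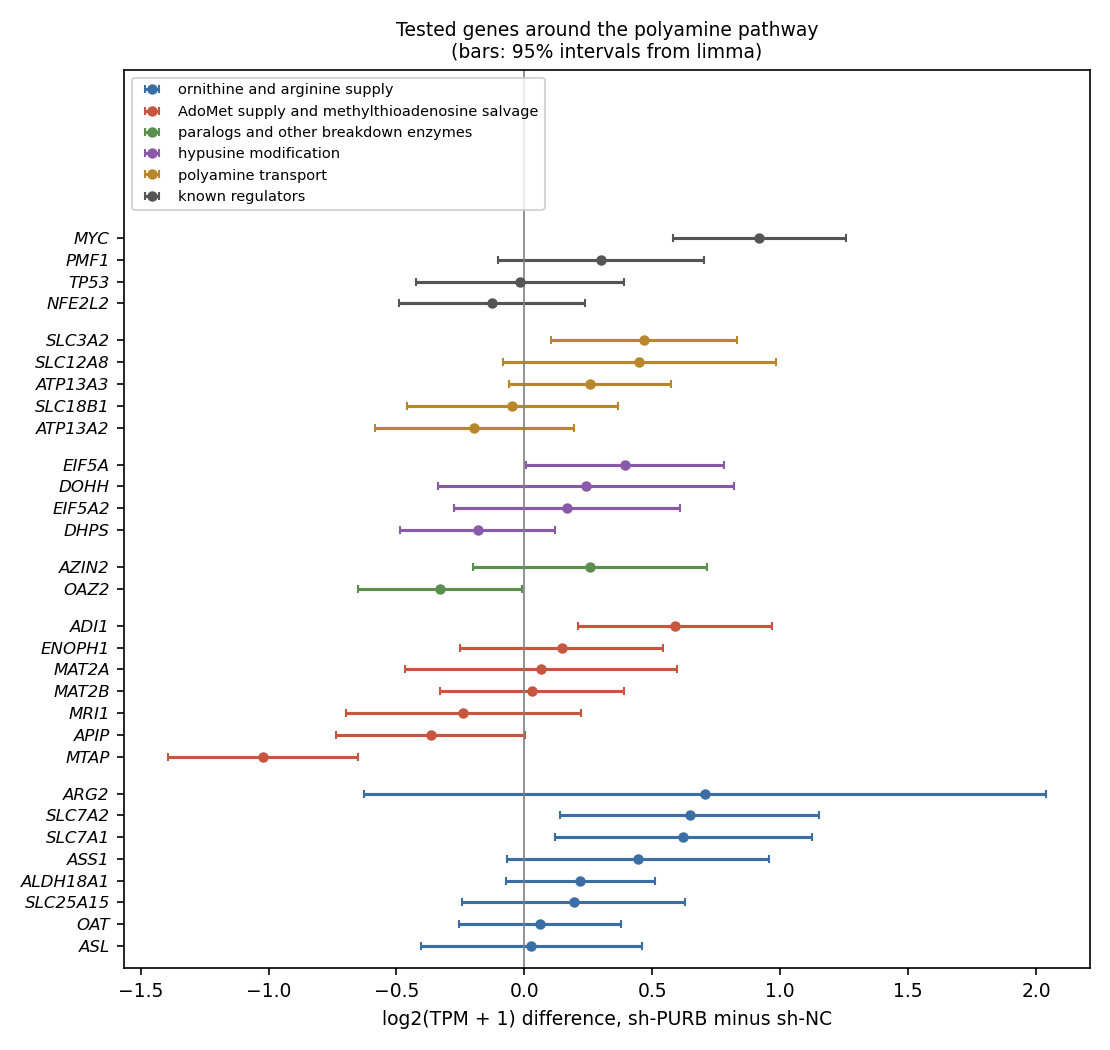
Difference between sh-PURB and sh-NC on the log2(TPM + 1) scale for the 30 tested genes around the polyamine pathway, coloured by list, with 95% intervals from limma. MTAP (-1.02) and MYC (0.92) lie farthest from 0 relative to their intervals. All 8 tested genes of ornithine and arginine supply lie above 0, OAT (0.06) and ASL (0.03) close to it. Of all tested genes 41.6% lie above 0.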

How the data were processed

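TPM per gene symbol were deposited by the authors for 4 libraries, in a joint table and in 1 table per library with the same values. Tools named in the submitters' processing notes are kallisto 0.44.0, bcl2fastq 2.19, DESeq2 and sleuth, and builds GRCm38 and GRCh38. What each was used for is not stated there. The annotation release, the strand setting and the summing of transcripts are not given in the sources used here. TPM keeps no depth and is a share, so abundant RNAs move all other genes. A row with a blank name (0.921% to 1.66% of a library) was left out. Samples were grouped by title.

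Genes with at least 1 TPM in at least 2 libraries were taken as log2(TPM + 1) and fitted in limma 3.58.1 (R 4.3.3) with a trend on intensity, and p-values were adjusted by Benjamini-Hochberg over 14269 genes, on 2 residual degrees of freedom. The fit was tested on simulated data, where most 2-fold changes put in were not called. A gene that did not pass can therefore not be called unchanged. The members and lists were chosen with earlier results of these data known. Named genes were the 10 members, PURB, the 3 genes with the smallest unadjusted p in each wider list, and the 5 protein-coding genes most like SAT1, of which 1 is not reported here. Cell type markers, AC131011.1, ARG1, AGMAT, ARG2, OAT, ASL, ATP13A2, SLC18B1, SNORA80B and the pseudogenes were named outside that rule. Symbols were matched to GENCODE v29 by current names (36727) or other symbols (2689), and 103 were not matched. Alternatives were each library left out, a block for the replicate number, robust or untrended moderation in limma, other pseudocounts (0.1 and 0.5), other filters (none, or 5 TPM), and other scalings (quantile, median-ratio, recomputed TPM, and protein-coding genes alone). Figures used Python 3.11.15 and matplotlib 3.10.9.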

Additional observations from a re-analysis of the deposited data

How the results depend on the processing

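SAT1 kept its direction in all 15 alternatives. These reuse the libraries in which its fall chose the set, so the kept direction is no evidence of stability. The SAT1 difference ran from -1.61 to -1.84 with 1 library left out and was -1.89 with a pseudocount of 0.1. SAT1, whose call chose the set and shows nothing of stability, was the 1 polyamine gene called, and 0 were called with a pseudocount of 0.1, with no filter, in limma without trend, or without either sh-PURB library (0 to 1 over the libraries left out). Over all genes 41 were called (12 higher, 29 lower). The count was 0 with a pseudocount of 0.1, with no filter and in limma without trend, 121 with the filter at 5 TPM, 84 after median-ratio rescaling, 118 after quantile normalization, 125 with robust moderation, 407 among protein-coding genes alone and 176 with recomputed TPM (99 higher, 77 lower). It was 0 to 155 with a library left out, fits with 1 residual degree of freedom in which a lone library is assumed to vary like the other group. The cause of these shifts was not tested. With the replicate number as a block the count was 118. The numbers are not stated to pair libraries, and same-numbered libraries deviated together with a correlation of 0.19 over genes, so the block is given here only. Under it 0 of the other 9 members and 0 wider genes were called. Wider genes called were 2 with the filter at 5 TPM and among protein-coding genes alone (MTAP lower, MYC higher) and 0 otherwise. PURB passed among protein-coding genes alone (-1.07, limma adjusted p = 0.0379, range 0.0379 to 0.390).

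Recomputed TPM moved the median difference of all genes from -0.06 to 0.06. Signs turned for genes near 0. After median-ratio rescaling AMD1 was 0.084 and SMS 0.051. Recomputed TPM gave 0.13 for AMD1, 0.094 for SMS, 0.0024 for AZIN1 and 0.018 for NFE2L2. AMD1 was 0.029 after quantile normalization and 0.031 among protein-coding genes alone. With a library left out AMD1 ran from -0.12 to 0.085, SMS from -0.19 to 0.079 and NFE2L2 from -0.26 to 0.0059. OAT and ASL were below 0 without sh-NC replicate 2, and ASL also without sh-PURB replicate 1. SLC18B1 was above 0 after median-ratio and quantile scaling, with recomputed TPM and without sh-NC replicate 1. The other tested genes named from the pathway kept their sign. Read depth is unknown, so what it limits cannot be given.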

Other observations

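The small nucleolar RNA SNORA80B lies inside the span of ODC1 on the same strand. Its level was 32.0 and 26.5 TPM in the controls, against 17.5 and 19.7 TPM with sh-PURB, while ODC1 was at 59.3 and 72.8 against 89.9 and 69.9 TPM. SNORA80B was chosen after its values were seen and is given without a test. Among copies of the members by symbol, the processed pseudogenes AMD1P3 and AMD1P4 were at most 0.201 TPM in any library, ODCP at most 0.0539, and AMD1P1, AMD1P2, SRMP1 and SRMP2 were listed at 0. On the strand opposite to SAT2 and OAZ1, the overlapping genes SHBG and JSRP1 were under 0.1 TPM in every library. Other annotated overlaps of PAOX, OAZ1 and AZIN1 were not analysed here.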
